A study of Mus musculus with 8 samples.

Results

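The 7 genes described here are read as marks of chromaffin cells, sympathetic neurons and the neural crest they come from: Chgb and Chga (the granins chromogranin B and chromogranin A), Th (tyrosine hydroxylase), Nefm (medium neurofilament), Gfra3 (the receptor for artemin), Sox10 (a transcription factor of crest and glia) and Uchl1 (a deubiquitinating enzyme of neurons). They are 7 of the 8252 genes with a probe set of their own on the array, and all 10 probe sets annotated to them were read. The genes were chosen by their KO minus WT difference at E12.5 in these data, so for these genes that difference is a description and carries no test. Gene expression was measured in dissected gonads of mouse embryos on 8 Affymetrix MG_U74Av2 arrays. The groups were wild type (WT) and Wnt4 knock-out (KO) embryos, female and male, at embryonic day 12.5 (E12.5) and 14.5 (E14.5), with 1 array in each of the 8 groups and no replicate. The labels name no strain, do not describe the KO allele, and do not say how many embryos gave the RNA of an array. Wnt4 itself was lower on the KO array of every pair, with KO minus WT differences on the log2 scale of -1.60 in females and -0.92 in males at E12.5, and of -1.14 and -0.23 at E14.5. The array labelled KO male E14.5 had Wnt4 at 9.19, near the 9.42 of its WT partner, whereas the other 3 KO arrays lay between 8.32 and 8.59.

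Neural crest cells leave the dorsal neural tube and give rise to sympathetic neurons, chromaffin cells and Schwann cells. Chromaffin cells are the endocrine cells of the adrenal medulla and the paraganglia. They store catecholamines with granins in dense-core granules and release them into the blood, and tyrosine hydroxylase makes the first and rate-limiting step of catecholamine synthesis. The gonad and the adrenal cortex arise from a common primordium beside the path of the migrating crest, and Wnt4 is known for keeping adrenal-type steroidogenic cells out of the fetal gonad.

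Start-site sequences are shown for Chgb, Th and Chga, the granule and catecholamine genes, because all 3 hold the core of a cAMP response element, the DNA element that such genes are known for. RefSeq windows (build GRCm38.p6) run from 250 bases before to 50 bases after the start and were given for 4 of the 7 genes, these 3 and Uchl1. The windows lie at chr2:132781392-132781691 on the plus strand for Chgb, chr7:142899946-142900245 on the minus strand for Th, and chr12:102554691-102554990 on the plus strand for Chga. Each is written 5′ to 3′ along its gene, with the element in capitals.
Chgb: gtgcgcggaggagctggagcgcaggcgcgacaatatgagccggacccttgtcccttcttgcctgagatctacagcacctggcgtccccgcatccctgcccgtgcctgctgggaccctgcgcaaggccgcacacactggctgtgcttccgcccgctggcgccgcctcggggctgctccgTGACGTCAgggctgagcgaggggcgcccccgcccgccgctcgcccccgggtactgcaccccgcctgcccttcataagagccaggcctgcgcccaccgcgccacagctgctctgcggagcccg
Th: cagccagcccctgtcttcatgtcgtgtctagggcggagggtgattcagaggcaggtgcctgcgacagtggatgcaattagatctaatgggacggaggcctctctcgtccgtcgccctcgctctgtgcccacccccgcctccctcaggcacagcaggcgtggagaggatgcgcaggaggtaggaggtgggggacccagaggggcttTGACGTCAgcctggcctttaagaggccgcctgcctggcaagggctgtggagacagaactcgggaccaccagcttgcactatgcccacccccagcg
Chga: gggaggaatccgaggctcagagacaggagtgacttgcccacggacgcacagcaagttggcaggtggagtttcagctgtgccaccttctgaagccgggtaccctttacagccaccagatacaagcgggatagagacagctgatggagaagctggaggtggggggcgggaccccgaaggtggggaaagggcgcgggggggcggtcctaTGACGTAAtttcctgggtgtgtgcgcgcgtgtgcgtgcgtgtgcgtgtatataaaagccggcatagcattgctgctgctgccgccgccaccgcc
The motif TGACGTCA stood 72 to 65 bases before the start of Chgb and 45 to 38 bases before that of Th. In Chga the related TGACGTAA stood 44 to 37 bases before the start. Searched on both strands, TGACGTCA occurred in 1.79% and TGACGTAA in 0.499% of all 32851 windows of this length. The 6 letters TGACGT, which lie inside both, occurred in 7.51% of the windows and in 3 of the 4 of these genes. GGGCGG was also in 3 of the 4, against 35.7% of all windows, and CANNTG in 3 of the 4, against 72.3%. The Uchl1 window held none of these motifs. Its GC content was 50.7%, against 72.7% for Chgb, 64.3% for Th, 62.0% for Chga and a mean of 53.8% over all windows. The motifs were chosen after the sequences had been seen, and a match is no measured binding site.

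Signals are given on the log2 scale after each array was centred on a common median. Values under a floor of 6.99, the 40th percentile of all values, are treated as too dim to order, so a difference with 1 array of the pair under it is a lower bound. Of the 10 probe sets, 8 exceeded the floor on at least 2 arrays and entered the fit of 8452 probe sets. The second probe sets of Chga and Chgb did not. Each array had 59.7% to 60.4% of its probe sets above the floor. The E14.5 male arrays stood apart: they correlated at Pearson r of 0.884 to 0.908 with the other 6 arrays, which correlated at 0.979 to 0.997 among themselves. The signal of actin probes at the 3′ end exceeded that at the 5′ end, a measure of RNA quality, by 0.48 and 0.49 in WT and KO females and by 0.96 and 1.10 in WT and KO males at E12.5. At E14.5 these gaps were 0.77 and 0.55 in females and 1.37 and 1.09 in males. Spike-in controls (9 sets) had a mean of 8.83 to 9.05 on the female arrays, 9.48 and 9.78 on the E12.5 male arrays, and 9.98 and 10.09 on the E14.5 male arrays. In comparisons that rest on the E14.5 male arrays, a difference between arrays and a difference between gonads cannot be told apart. The array labelled WT female E14.5 held a steroidogenic transcript of the testis: Cyp17a1 was at 10.36 there, at 8.13 in KO females and at 11.77 and 11.19 in WT and KO males of that stage. Of 11 fitted Sertoli genes, 10 were lower in KO than in WT females of E14.5, with a median of -0.50. Among them, Aard was at 9.87 in WT females, 8.50 in KO females and 9.81 in WT males. On the array labelled KO male E14.5, 6 of 7 fitted pregranulosa genes were higher than in WT males, with a median of 0.39. The germ cell gene Stra8 was at 7.44 there and at 5.70 in WT males. The cause was not tested. Results that rest on the WT female E14.5 array are also given without it where the design leaves a value.

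**Figure D1:**
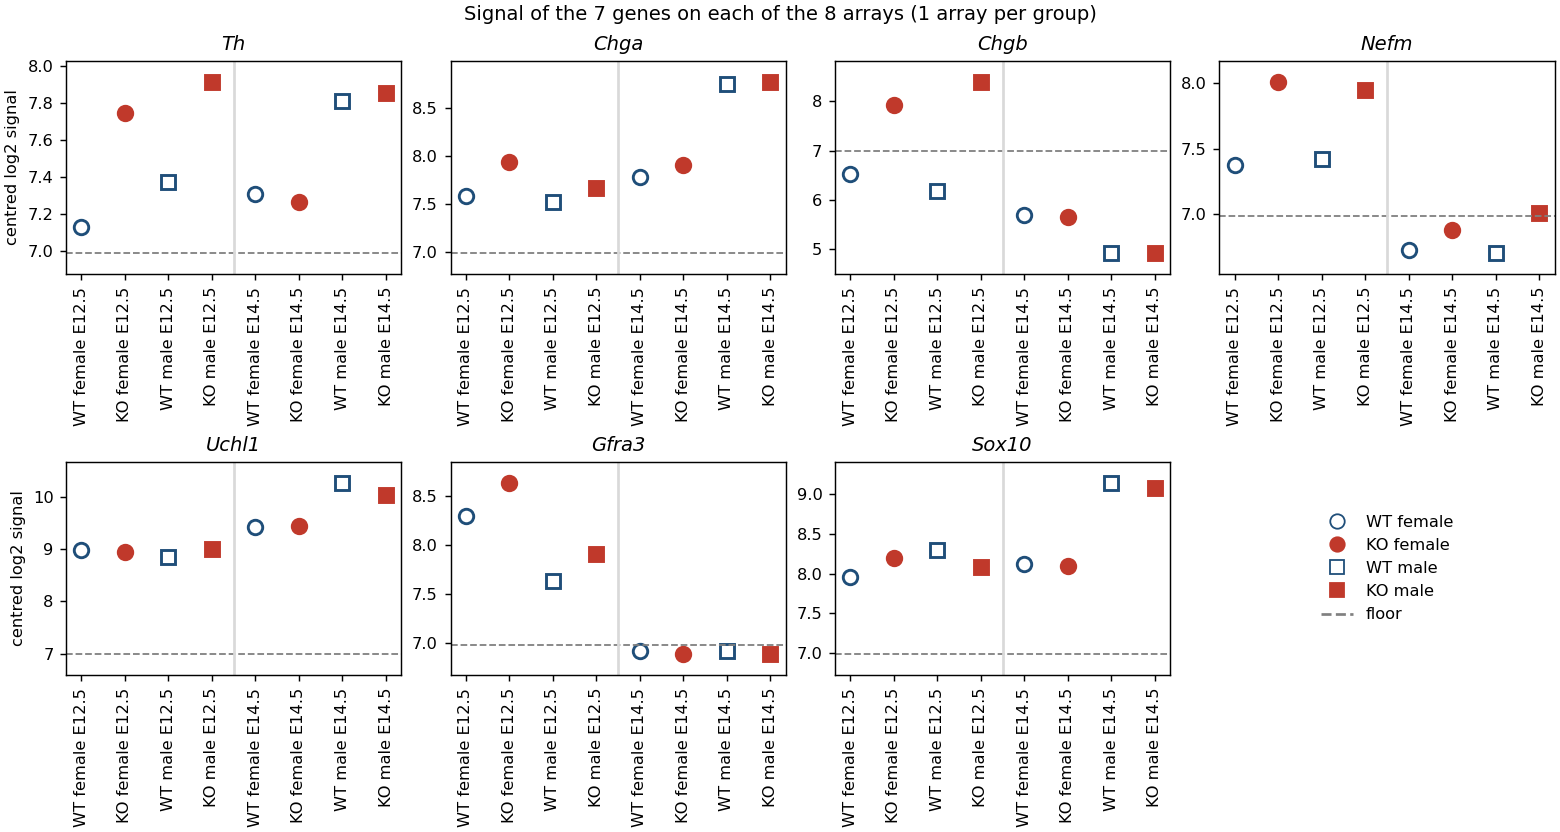
Centred log2 signal (y axis, a separate range for each gene) of the probe set that stands for each of the 7 genes, on each of the 8 arrays (x axis); each point is 1 array, so no error bar can be drawn, and the dashed line is the floor of 6.99. Chgb is above the floor on the KO arrays at E12.5 alone, Gfra3 is above it on the 4 E12.5 arrays, and Uchl1, Chga and Sox10 are highest on the E14.5 male arrays.

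The first comparison asked what the loss of Wnt4 changed in the early gonad, and Chgb stood furthest from WT, followed by Th and Nefm at like differences. Chgb, which helps to form and fill dense-core granules, was at 6.54 on the WT female array and 7.92 on the KO female array at E12.5. In males of that stage it was at 6.19 on the WT and 8.40 on the KO array. Only the KO arrays were above the floor, in both sexes. KO was therefore at least 0.94 above WT in females and at least 1.41 in males, that is at least 1.91-fold and at least 2.67-fold. Without the floor the differences were 1.38 and 2.21. With the floor, the difference was the highest male one and the 6th highest female one of all fitted probe sets. The probe set that gave it carries the suffix _f_at, for probes shared within a gene family. The second Chgb set, whose suffix _r_at marks a relaxed choice of probes, lay between 2.39 and 3.56 on the 8 arrays and gave no measured difference, so the Chgb values rest on 1 probe set.

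Th was at 7.13 in WT and 7.74 in KO females at E12.5, and at 7.37 in WT and 7.92 in KO males. Both KO arrays lay above both WT arrays of the stage, in the contrast by which the gene was chosen. The share of all probe sets with such an order was not counted. The differences were 0.62 (1.53-fold) in females and 0.54 (1.46-fold) in males. Chga, the granin used as a general endocrine mark, differed less: it was at 7.59 and 7.94 in WT and KO females and at 7.52 and 7.67 in WT and KO males. Its differences of 0.35 and 0.15 ranked 64th and 1081st from the highest. The second Chga set, also of the _f_at kind, stayed under the floor on all 8 arrays.

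Among the neuronal genes, Nefm, a subunit of the axonal intermediate filament, was at 7.38 in WT and 8.01 in KO females at E12.5. It was at 7.42 in WT and 7.95 in KO males, so that both KO arrays were again above both WT arrays. The differences were 0.63 (1.55-fold) and 0.53 (1.44-fold). Uchl1, which fetal germ cells are also known to express, was at 8.99 and 8.95 in WT and KO females and at 8.86 and 9.0 in WT and KO males. Its differences had opposite signs, -0.04 and 0.15.

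Of the crest genes, Gfra3 was positive in both pairs and Sox10 had opposite signs. Gfra3, by which artemin guides sympathetic neurons, was at 8.30 and 8.64 in WT and KO females and at 7.63 and 7.91 in WT and KO males. KO was 0.34 above WT in females and 0.27 in males, while the groups of both sexes together overlapped, since the WT female array was above the KO male array. Sox10 was at 7.95 and 8.19 in WT and KO females and at 8.29 and 8.09 in WT and KO males by its brighter probe set. That gave 0.24 in females and -0.21 in males. The dimmer Sox10 set lay between 6.81 and 7.07 on these arrays, near the floor, and gave 0.09 and -0.06 as bounds, again with opposite signs.

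**Figure D2:**
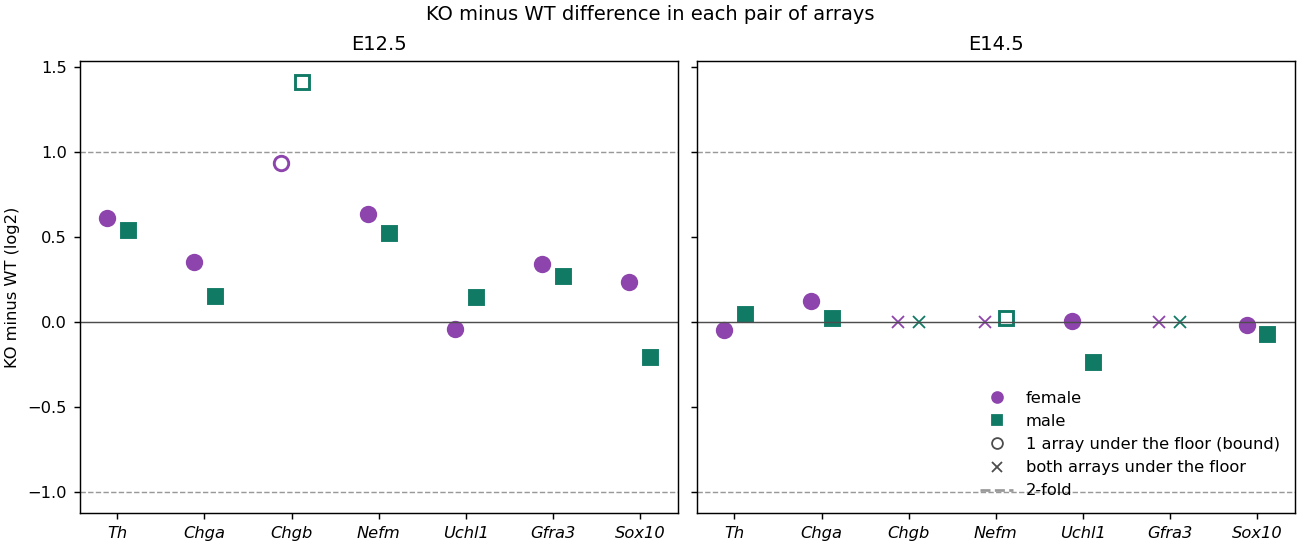
KO minus WT difference (log2, y axis) for each of the 7 genes in the female pair (circles) and the male pair (squares) of arrays at E12.5 (left) and E14.5 (right); open symbols are bounds with 1 array under the floor, crosses mark pairs with both arrays under it, and dashed lines mark a 2-fold difference. At E12.5 Chgb, Th and Nefm lie above 0.5 in both pairs, and at E14.5 all measured differences lie between -0.23 and 0.12.

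Counted over the genes, 6 of 7 were positive in the female pair and 6 of 7 in the male pair at E12.5, and 5 were positive in both: Chgb, Th, Nefm, Gfra3 and Chga. Of all fitted probe sets, 17.2% were positive in both pairs. The median of the 7 was 0.35 in females and 0.27 in males, against -0.01 and 0.01 over all fitted probe sets. At least 2-fold higher in KO were 0 of the 7 in females, where 0.0473% of all probe sets were, and 1 in males (Chgb), where 0.0711% were. With 1.5-fold in place of 2-fold, 3 counted in females (Chgb, Nefm and Th; background 0.284%) and 1 in males (Chgb; background 0.225%). These shares are printed for orientation, since the contrast chose the genes.

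Averaged over the sexes in the limma fit, KO minus WT at E12.5 was 1.18 ± 0.11 (SE, 8 arrays in the fit) for Chgb, a value that depends on the floor. It was 0.58 ± 0.07 for Th, 0.58 ± 0.05 for Nefm, 0.31 ± 0.06 for Gfra3 and 0.25 ± 0.09 for Chga. For Uchl1 it was 0.05 ± 0.10 and for Sox10 0.02 ± 0.13, both smaller than their SE. The SE of Chgb and Gfra3 draws no spread from E14.5, where every array was set to the floor. These estimates describe the contrast by which the genes were chosen. In a whole gonad more cells of a type and more RNA per cell cannot be told apart.

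**Figure D3:**
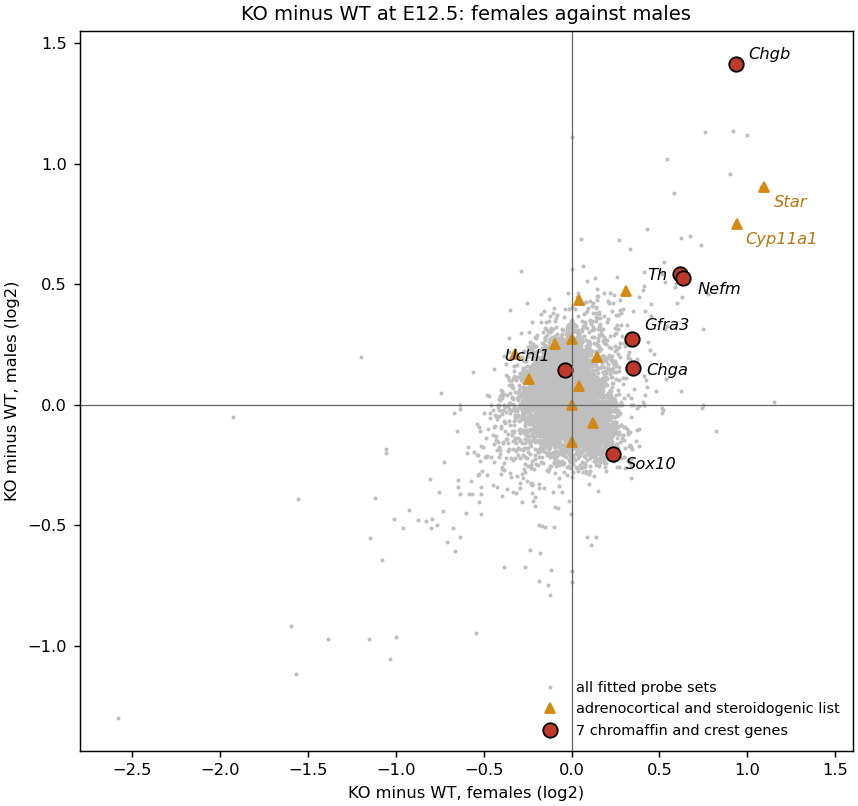
KO minus WT difference at E12.5 in females (x axis, log2) against males (y axis, log2); grey points are all fitted probe sets, red points the 7 genes and orange triangles the adrenocortical and steroidogenic genes, with floored values as bounds. Chgb, Th and Nefm lie at the upper right edge of the cloud near Star and Cyp11a1, Uchl1 lies inside the cloud, and Sox10 lies on the female-positive, male-negative side.

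At E14.5 the genes measured above the floor on both arrays of a pair, namely Th, Chga, Uchl1 and Sox10, differed by -0.23 to 0.12 between KO and WT. The male values rest on the array labelled KO male E14.5, whose Wnt4 level was near that of WT. Th was at 7.31 and 7.26 in WT and KO females and at 7.81 and 7.86 in WT and KO males, which gave -0.05 and 0.05. Chga was at 7.79 and 7.91 in females and at 8.76 and 8.78 in males, which gave 0.12 and 0.02. Chgb, at 5.69 and 5.66 in females and at 4.92 and 4.93 in males, was under the floor on all 4 arrays. Gfra3, at 6.92, 6.89, 6.92 and 6.89 in the same order, was as well. Nefm was at 6.73 and 6.88 in females, both under the floor, and at 6.70 and 7.01 in males. Uchl1 differed by 0.01 in females and -0.23 in males, and Sox10 by -0.02 and -0.07. No gene of the 7 was 2-fold higher in KO in either sex, where 0.0355% of all probe sets were in each of the pairs. For the genes under the floor this says only that they were too dim to compare. The difference between the stages in the KO effect was not tested, since it contains the contrast that chose the genes.

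The sex comparison, male minus female over both genotypes, did not enter the choice of genes, and at E12.5 Gfra3 was lower in males. Its female arrays, at 8.30 and 8.64, were both above its male arrays, at 7.63 and 7.91. The difference was -0.66 in WT and -0.73 in KO, and -0.70 ± 0.06 in the fit (limma, adjusted p = 0.0065). Gfra3 was set to the floor on every E14.5 array, so those arrays added no spread to the error behind this SE and p. It was the only one of the 7 genes to pass, so that 1 was lower, where 4.48% of all probe sets were, and 0 were higher, where 5.32% were. At an unadjusted p under 0.05 limma had 2 of the 7, Gfra3 and Th, where 29.2% of all probe sets had one. Th was 0.21 ± 0.07 higher on the male arrays (adjusted p = 0.094), with 0.25 in WT and 0.17 in KO. The other 5 had adjusted p of 0.19 to 1.0. With any 1 of the 8 arrays left out, the adjusted p of Gfra3 was between 0.17 and 0.38, and its difference between -0.73 and -0.66. Each such fit had 1 residual degree of freedom. The E12.5 males also had a higher spike-in mean than the females, and a larger gap between 3′ and 5′ actin signal, whose part in the sex differences was not tested. Without centring, 1964 probe sets were higher and 276 lower in males, against 450 and 379 with it. Gfra3 was then at -0.56, with an adjusted p of 0.0053, and Th at 0.35, with an adjusted p of 0.016.

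At E14.5, 4 of the 7 genes were higher in males than in females. Chga was at 8.76 (WT) and 8.78 (KO) in males, against 7.79 and 7.91 in females, a difference of 0.92 ± 0.09 (limma adjusted p = 0.00017). Sox10 was at 9.14 and 9.07 in males and 8.11 and 8.10 in females, 1.0 ± 0.13 apart (limma adjusted p = 0.00043). Its dimmer probe set, at 7.97 and 7.93 against 7.11 and 7.12, gave 0.83 ± 0.05. Uchl1 was at 10.26 and 10.03 in males and 9.43 and 9.44 in females, 0.72 ± 0.10 apart (limma adjusted p = 0.00076), and Th differed by 0.55 ± 0.07 (limma adjusted p = 0.00035). For these 4 genes the male and female arrays did not overlap, but the share of all probe sets without overlap was not counted. The background was wide, however, with 38.2% of all probe sets higher in males and 36.5% lower, and 0 of the 7 were lower. These differences rest on the E14.5 male arrays, which stand apart from the rest, and on the WT female array that held Cyp17a1. Without centring, which moved the median of all fitted probe sets by -0.27, 1588 probe sets were higher and 4331 lower against 3230 and 3084 with it. Chga was then at 0.53, Sox10 at 0.61 and Uchl1 at 0.33, and Th was at 0.16 with an adjusted p of 0.083. With the WT female or the WT male array of E14.5 left out, 2 of the 4 passed (Chga and Th). Without either KO array of that stage Sox10 did not pass, at adjusted p of 0.076 and 0.075.

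From E12.5 to E14.5 in females, Uchl1 rose, while Th, Nefm, Gfra3 and Chgb are described without a test. Gfra3 and Chgb passed the filter on low values through E12.5 arrays alone, so they had to differ between the stages to be fitted. Nefm passed it through E12.5 arrays and 1 E14.5 array, KO male at 7.01. The KO arrays of E12.5, which chose Nefm and Th, also enter their fits. Gfra3 went from 8.30 to 6.92 in WT and from 8.64 to 6.89 in KO, so that it dropped under the floor in both genotypes. The difference was at least 1.31 in WT and at least 1.65 in KO, and the fit gave -1.48 ± 0.06. Nefm was lower at E14.5 by at least 0.39 in WT and at least 1.03 in KO, and the fit gave -0.71 ± 0.05. For Chgb the WT arrays were under the floor at both stages, and its fitted change of -0.47 ± 0.11 rests on the KO array of E12.5, which chose the gene. Uchl1 was 0.44 higher at E14.5 in WT and 0.49 in KO, a change of 0.46 ± 0.10 (limma adjusted p = 0.029). Chga at 0.09 ± 0.09 and Sox10 at 0.03 ± 0.13 did not pass, with limma adjusted p of 0.60 and 0.94. The fitted change of Th was -0.15 ± 0.07. Uchl1 was the 1 gene tested here that passed, where 6.19% of all probe sets were higher and 10.4% lower. This count says nothing of the 7 genes as a set. Nefm was under the floor on 3 of the 4 E14.5 arrays.

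The stage call of Uchl1 in females was fragile. With any 1 array left out, Uchl1 did not pass. Without centring, which moved the median of all probe sets by -0.27, Gfra3 was at -1.69 and Nefm at -0.91, while Uchl1 was at 0.21 with an adjusted p of 0.12. The counts over all probe sets then were 247 higher and 4376 lower, against 523 and 880 with centring.

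In males Uchl1, Chga and Sox10 rose from E12.5 to E14.5, and Th, Nefm, Gfra3 and Chgb are again described without a test. Uchl1 rose from 8.86 to 10.26 in WT and from 9.0 to 10.03 in KO, by 1.22 ± 0.10 in the fit (limma adjusted p = 7.09e-05). Chga rose by 1.24 in WT and 1.11 in KO, and by 1.17 ± 0.09 in the fit (limma adjusted p = 6.11e-05). Sox10 rose by 0.92 ± 0.13 (limma adjusted p = 0.00061), and its dimmer probe set by 0.93 ± 0.05. The fitted change of Th, 0.19 ± 0.07, includes the KO array of E12.5, which chose the gene. Its genotypes went opposite ways, 0.44 in WT and -0.06 in KO. Nefm was lower at E14.5 by at least 0.43 in WT and by 0.94 in KO. Its fitted change of -0.69 ± 0.05 includes the KO array of E12.5, which chose the gene. Gfra3 was lower at E14.5 by at least 0.65 in WT and 0.92 in KO, with a fitted change of -0.78 ± 0.06. Chgb, under the floor in WT at both stages, was lower by at least 1.41 in KO, and its fitted change of -0.71 ± 0.11 rests on the KO array of E12.5, which chose the gene.

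The background in males was again wide, with 36.5% of all probe sets higher and 38.6% lower. Without centring, which moved the median of all probe sets by -0.69, 715 probe sets were higher and 6225 lower, against 3085 and 3261 with it. The fitted change of Th then turned to -0.59, and Sox10, at 0.14, had a limma adjusted p of 0.36. Chga was at 0.39 and Uchl1 at 0.44, both past the threshold. Th also did not pass with an E12.5 array or an E14.5 male array left out. Over all alternatives, the change of Th in males lost significance in 11, reversed in 1 and was unchanged in 5. The losses were thus not limited to fits with an array left out. Sox10 did not pass without either E14.5 male array.

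**Figure D4:**
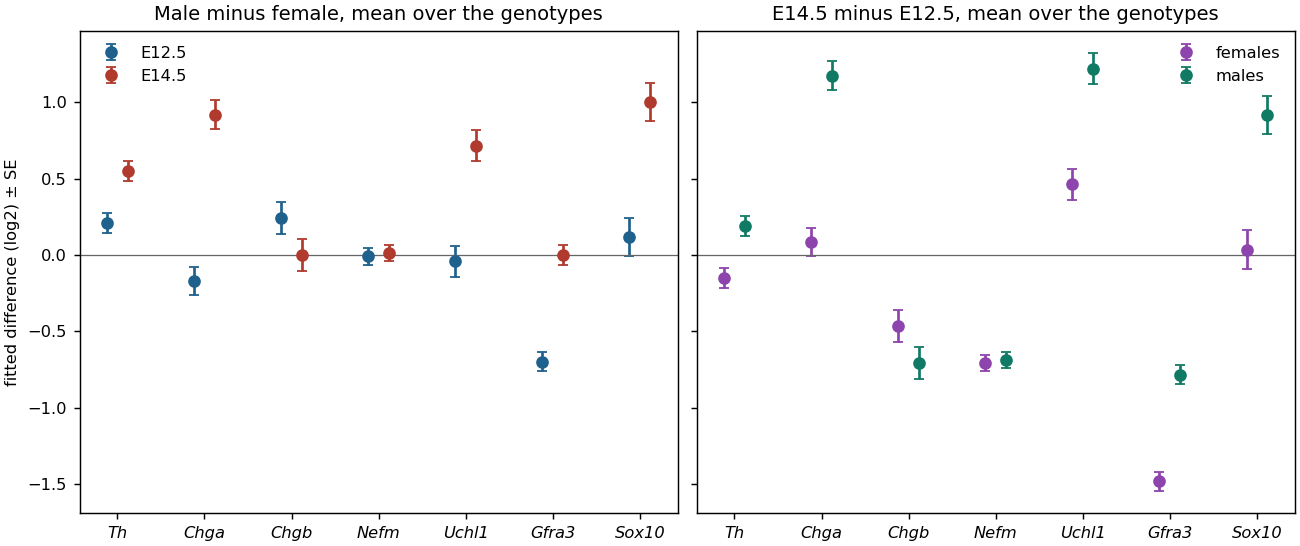
Fitted log2 differences with their SE (y axis) for the 7 genes: male minus female at E12.5 and E14.5 (left) and E14.5 minus E12.5 in females and males (right), each a mean over the genotypes from the limma fit on 8 arrays; values of 0 for Chgb and Gfra3 at E14.5 come from arrays under the floor. Gfra3 is the gene at -0.70 in the E12.5 sex comparison and at -1.48 and -0.78 in the stage comparisons, and Chga, Uchl1 and Sox10 are the 3 highest in males from E12.5 to E14.5.

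Over the 8 arrays the 7 genes followed unlike patterns, given here as correlations of the centred values without the floor. Chgb and Nefm had a Pearson r of 0.93, Nefm and Gfra3 one of 0.88, and Chgb and Gfra3 one of 0.82. Chga went with Uchl1 and with Sox10 at r = 0.93 each, and against Chgb at -0.61. Th went with Chgb at 0.20. Several of these changed without the E14.5 male arrays: over the other 6 arrays Chga and Sox10 had r of -0.0048, Th and Chgb 0.89, and Chgb and Nefm 0.94. Chgb was under the floor on 6 of the 8 arrays. With values under the floor set to it, an alternative chosen after seeing the data, r over 8 arrays was 0.88 for Chgb and Nefm, 0.58 for Chgb and Gfra3, -0.26 for Chga and Chgb, and 0.57 for Th and Chgb. Such correlations over 6 or 8 arrays share the arrays and their scaling, and are given without a test.

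Averaged over the 7 genes, each relative to its own mean and without the floor, the level was 0.44 on the KO female and 0.37 on the KO male array at E12.5. It was -0.07 and -0.15 on the WT arrays of that stage, -0.34 and -0.31 on the WT and KO female arrays of E14.5, and 0.03 on both male arrays of E14.5. Chgb weighs heavily in this mean: with the floor, the KO arrays of E12.5 were at 0.28 (female) and 0.21 (male) and the E14.5 male arrays at 0.21 (WT) and 0.18 (KO). Of the 2738 other genes with a range of at least 1 on the log2 scale, Ptprv, a receptor-type tyrosine phosphatase, had the profile most like the mean without the floor, with r = 0.93 over 8 arrays. It was at 8.93 and 9.56 in WT and KO females and at 8.93 and 9.38 in WT and KO males at E12.5, and at 8.51 to 8.89 at E14.5. Next came Mme (0.83), the membrane peptidase neprilysin, the splicing kinase gene Clk1 (0.79), Klk1 (0.77), the brain-type creatine kinase gene Ckb (0.76), Tcl1 (0.73), the chemokine gene Cxcl12 (0.73) and the mesenchyme and crest transcription factor gene Twist1 (0.72). This order depends on the floor: with it, Ptprv had r = 0.69 and ranked 27th, and Dlgap4, a gene of the postsynaptic scaffold, was the highest at 0.84.

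Other genes of chromaffin cells, sympathetic neurons and crest were read from 6 lists. None of the fitted genes of these lists was 1.5-fold higher in KO in either E12.5 pair. Of 13 genes of catecholamine synthesis and storage, 8 had a probe set and 7 were fitted, with a median KO minus WT of -0.02 in females and 0.02 in males. Ddc, which makes dopamine, was the 1 of these positive in both pairs, at 0.22 and at least 0.13. Pnmt, which makes adrenaline, was at 0.51 in females and -0.03 in males, and the noradrenaline transporter gene Slc6a2 at 0.08 and -0.13. Qdpr, which regenerates the cofactor of Th, was at -0.20 and 0.02, and the amine-degrading Maoa at -0.16 and 0.09. Dbh, Slc18a1 and Slc18a2, which with Th define the noradrenergic cell, were not analysed here.

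Of 14 sympathoadrenal transcription factors 12 had a probe set and 8 were fitted, with medians of -0.02 and 0.05, and 0 were positive in both pairs. Gata2 was at -0.52 and -0.23, Sox4 at -0.14 and 0.09, Sox11 at -0.29 and 0.30 and Hand1 at 0.07 and -0.18. Phox2a, a defining factor of noradrenergic cells, was under the floor on 3 of the 4 E12.5 arrays and at 7.12 in KO males. Of 23 genes of granule cargo and secretory machinery 17 had a probe set and 6 were fitted, with medians of 0.16 and 0.10, and 4 were positive in both pairs. Cpe, a prohormone-processing enzyme, was at 0.24 and 0.42, the vesicle protein gene Vamp2 at 0.19 and 0.26, Rab3a at 0.18 and -0.12, and the peptide-amidating enzyme gene Pam at -0.65 and -0.11. The granin Scg2 and the release protein gene Snap25 were too dim to be fitted.

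All 25 genes of neuronal cytoskeleton and growth had a probe set and 15 were fitted, with medians of 0.02 and 0.00, and 4 were positive in both pairs. The neuronal tubulin gene Tubb3 was at 0.05 and 0.04, the growth cone gene Basp1 at -0.04 and -0.04, and the adhesion molecule gene Ncam1 at -0.01 and 0.27. Thy1, a surface glycoprotein of neurons and other cells, was the 1 gene of the 6 lists that was 2-fold apart at E12.5, at -1.08 in females and -0.65 in males. Nefl, the light partner of Nefm in the neurofilament, was not fitted. Dpysl3 (0.44 and 0.23) and Crmp1 (0.33 and 0.25), related growth cone proteins of young neurons, had the highest mean of both pairs in the list. They are named after their values were seen.

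Of 22 Schwann cell and migrating crest genes 17 had a probe set and 10 were fitted, with medians of 0.08 and 0.10, and 4 were positive in both pairs. Twist1 was at 0.15 and 0.45, Snai2 at 0.03 and 0.28, the myelin gene Pmp22 at 0.09 and 0.17 and Sox2 at 0.10 and -0.28. Foxd3 and S100b were not fitted. Of 16 genes of the GDNF family and the neurotrophin receptors 11 had a probe set and 7 were fitted, with medians of 0.05 and -0.02, and 0 were positive in both pairs. Nrtn was at -0.10 and -0.05, Pspn at 0.11 and -0.08, Alk at 0.18 and -0.02 and Gfra2 at -0.05 and 0.02. Ret, the receptor that signals for Gfra3, was not fitted.

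The label of these genes as a chromaffin set could thus be checked in part only. Among the 7, Chgb, Th and Nefm had a KO minus WT difference over 0.5 in both E12.5 pairs, Sox10 and Uchl1 had opposite signs in the pairs, and several defining genes were under the floor or not analysed. The related genes that were fitted mostly did not share the difference, though the lists differed. None of them was 1.5-fold higher in KO, a mark that only Chgb of the 7 reached in males. A pair with both arrays under the floor has a difference of 0 and could not count as positive. Among the transcription factors this held for Hand2 in both pairs and for Phox2a in females. Positive in both pairs were 1 of 7 catecholamine genes, 0 of 8 transcription factors and 0 of 7 GDNF family genes. So were 4 of 6 granule genes, 4 of 15 cytoskeleton genes and 4 of 10 Schwann cell and crest genes, against 17.2% of all probe sets.

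Markers of other cell types also differed in these pairs. Of 19 adrenocortical and steroidogenic genes 13 had a probe set and were fitted, with medians of 0.04 in females and 0.21 in males. Of these 13, 6 were positive in both pairs, and 2 were at least 1.5-fold higher in KO in each pair. Star, which carries cholesterol into mitochondria, was at 6.68 and 8.08 in WT and KO females and at 7.04 and 7.94 in WT and KO males, that is at least 1.10 and 0.90 higher in KO. Cyp11a1, which starts steroid synthesis, was at least 0.94 and 0.75 higher, and Mc2r, the ACTH receptor of the adrenal cortex, 0.31 and 0.47. Cyp11a1 and Mc2r were named after their values were seen. Of the brightest of the list, Dlk1 was at -0.24 and 0.11, Nr5a1 at 0.04 and 0.08, Fdx1 at 0.04 and 0.43 and Scarb1 at -0.10 and 0.25. The summed linear signal of the list in KO was 0.982 of WT in females and 1.13 in males. Adrenal enzyme genes Cyp11b1 and Cyp11b2 were not analysed here. At E14.5 KO minus WT of Star was -0.58 in females and -0.49 in males, and the female value rests on the WT array that held Cyp17a1. The part of adrenal-type cells or of tissue beside the gonad in the values of the 7 genes was not tested.

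Of the remaining cell types, 10 mesonephros and duct genes had medians of -0.25 in females and -0.11 in males, with 0 positive in both pairs. Endothelial genes had medians of 0.03 and 0.20, with 6 of 10 positive in both, and stroma and matrix genes 0.04 and 0.12, with 5 of 10. Germ cell genes had 0.01 and -0.03, Sertoli genes 0 and 0, macrophage genes 0.01 and 0.13, erythroid genes -0.05 and -0.06, and smooth muscle and myoid genes 0.08 and 0.04. Pregranulosa genes, which include Wnt4, had -1.12 and -0.38.

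**Figure D5:**
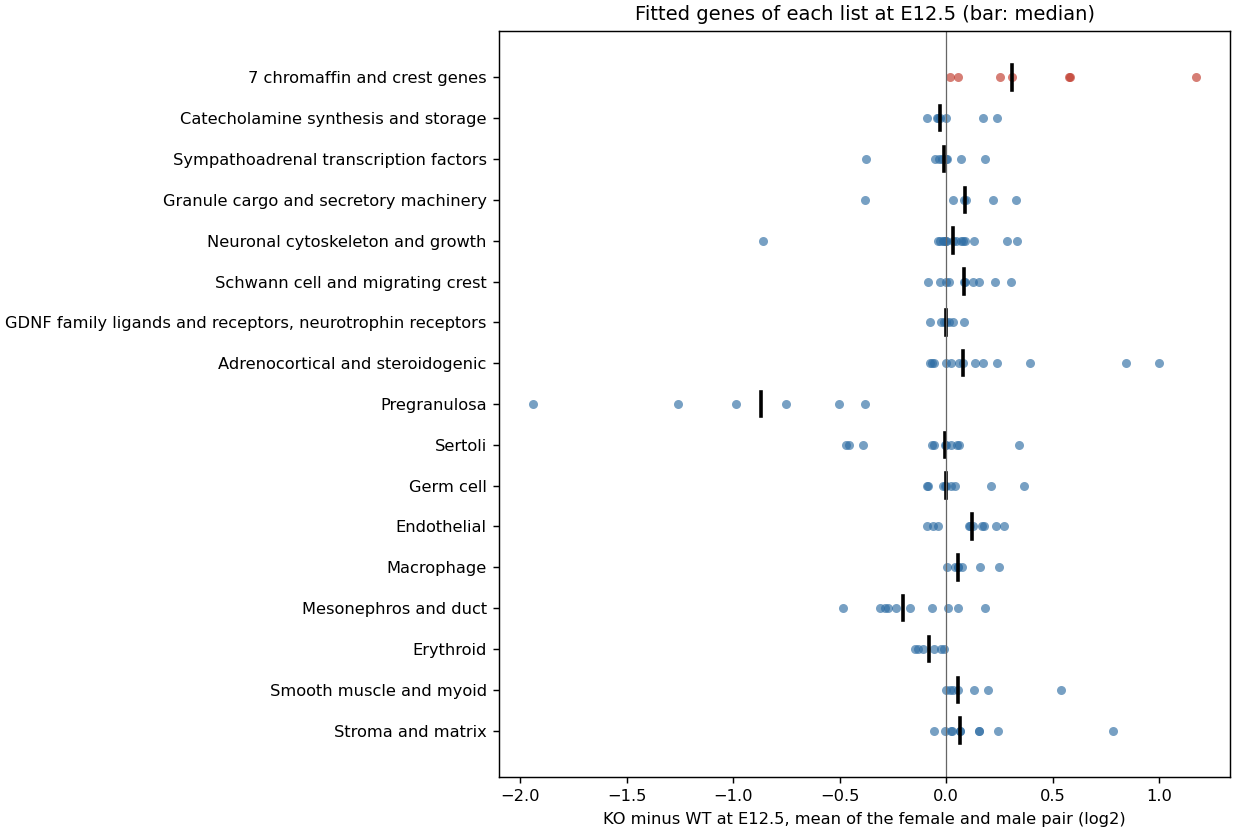
KO minus WT at E12.5 averaged over the female and male pair (x axis, log2) for each fitted gene (points) of the 7 genes and of 16 lists of other genes (y axis), with a bar at each list's median; floored values are bounds. The 7 genes run from 0.02 for Sox10 to 1.18 for Chgb, the 6 lists of related neural genes have medians near 0, and Star and Cyp11a1 are the 2 highest points of the adrenocortical list.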

How the data were processed

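WT and Wnt4 KO gonads were profiled on MG_U74Av2 arrays, 1 for each of 8 groups, so the number of arrays limits the precision. The deposited log2 values of 12488 probe sets were made with MAS5, per the submitters' processing notes, with a version not given in the sources used. For KO males at E12.5 the deposited column held values of another kind in 14 cells, serial numbers of dates in place of log2 signals, which were set to missing, none of them (0) in the 7 genes. Probe sets were named from the platform annotation, which gave 1 gene for 10855 and several for 396. A gene was represented by its probe set with the highest mean.

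Arrays were centred to a common median, values under the 40th percentile (6.99) were set to that floor, and probe sets above it on at least 2 arrays were kept, without 66 control sets, which left 8452 for 6353 genes. Limma 3.58.1 in R 4.3.3 was fitted on all 8 arrays as stage × genotype plus stage × sex with an intensity trend, so that one factor's pairs served as the repeat for the other. This left 2 residual and 4.38 prior degrees of freedom, with Benjamini-Hochberg adjustment over all fitted probe sets at 0.05, two-sided. An effect of genotype that differs between the sexes counts as error in this fit. The p-values measure the spread between these arrays, which may be technical. The code was tested on simulated data. Alternatives changed the floor, centring, filter, probe set rule, fold, model and trend, or left out 1 array.

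The 7 genes and the gene lists were chosen with earlier results of these data known. All probe sets of the 7 genes were named, and of each list up to 4 genes with the highest mean level and any gene 2-fold apart in a KO pair at E12.5. Likeness was ranked by Pearson r with the mean profile of the 7 genes.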

Additional observations from a re-analysis of the deposited data

Results flagged for a closer look

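The sex difference of Chga, chromogranin A, differed in sign between the stages. Male minus female was -0.07 in WT and -0.27 in KO at E12.5, and 0.97 in WT and 0.87 in KO at E14.5, so that all pairs of a stage went one way and those of the other stage the opposite way. The fitted difference between the stages was 1.09. It was not tested, and it rests on the E14.5 male arrays, which stand apart from the other 6. At E12.5 the sex difference of Chga did not pass (limma adjusted p = 0.28). Without centring, added after seeing the data, it was 0.09 in WT and -0.15 in KO at E12.5 and 0.63 and 0.43 at E14.5, so that the stages were no longer of opposite sign.

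The stage change of Th, tyrosine hydroxylase, differed in sign between the genotypes. E14.5 minus E12.5 was 0.18 in females and 0.44 in males of WT, and -0.48 in females and -0.06 in males of KO. The mean KO change minus the mean WT change was -0.58. It was not tested, and it holds the KO minus WT difference at E12.5 by which the gene was chosen. Without centring, also added after seeing the data, all 4 changes were negative, at -0.09 and -0.33 in WT and -0.72 and -0.85 in KO. With 1 array in a group, no sample could be set against others of its group.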

How the results depend on the processing

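Over 738 alternative values, 598 were counted as unchanged, 74 lost and 2 gained significance, 63 moved and 1 reversed. Unchanged values kept their side of the threshold or moved little. They include changes of sign where neither fit passed, as for the stage change of Chga in females, which ran from -0.17 to 0.10. A reversal was a change of sign with a fit past the threshold. The reversal was Th from E12.5 to E14.5 in males without centring, at -0.59. The count of the 7 genes 2-fold higher in KO females at E12.5, 0 as reported, was 1 (Chgb) with a floor at the 30th percentile, without a floor and without centring, and 3 at 1.5-fold. In males the count of 1 was 0 with a floor at the 50th percentile. The fitted Chgb difference at E12.5, 1.18, was 0.65 with the floor at the 50th percentile and 1.80 without a floor. For the sex difference at E12.5, the count higher was 1 without centring, and the count lower was 0 without the filter on low values and 0 with any array left out. At E14.5 the count lower was 1 without a floor, and the count higher ran from 2 to 4 with an array left out. In females from E12.5 to E14.5 the count higher was 0 without centring, 0 without the filter and 0 with any array left out. The count lower is not given for the stage changes, since Nefm, Gfra3 and Chgb were described without a test. In males the count higher was 2 without centring (Chga and Uchl1), where Sox10 did not pass. Fits without an array had 1 residual degree of freedom, and the array left alone in its pair is assumed to vary like the others. The cause of the other changes was not tested. The model sex × genotype plus sex × stage gives no KO value for E12.5 alone, so it was not run for that result. No paired analysis was possible because the labels give no replicate numbers and each group has 1 array, beyond the sex and genotype pairs that the model itself uses. Signals near the floor limit Chgb, Nefm and Gfra3.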

Other observations

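Some genes outside the neural and adrenal lists also differed in KO gonads at E12.5, and they are named after their values were seen. Acta2, smooth muscle actin, was 0.59 higher in KO than WT in females and 0.49 in males at that stage, and -0.09 and -0.68 at E14.5. Postn, a matrix protein of stroma, was 0.55 and 1.02 higher at E12.5 and 0.63 and 0.62 at E14.5. Dppa5a, a pluripotency gene of germ cells, was 0.74 higher in KO females and -0.02 in KO males at E12.5. None of these differences was tested.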
